A study of Mus musculus with 4 samples.

Results

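The let-7 family is a set of small regulatory RNAs that carry the same seed, the stretch near the 5′ end through which a miRNA pairs with its targets. It was first found in the worm Caenorhabditis elegans as a timing gene of development. In mammals its guide strands, the arms that are loaded into Argonaute, are scarce in embryonic cells and abundant in differentiated ones, are held back by the RNA-binding protein LIN28, and repress growth genes such as Hmga2, Myc and Ras genes. Blood cells and plasma are rich in them.

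The members are the 9 guide strands named mmu-let-7a-5p, mmu-let-7b-5p, mmu-let-7c-5p, mmu-let-7d-5p, mmu-let-7e-5p, mmu-let-7f-5p, mmu-let-7g-5p, mmu-let-7i-5p and mmu-miR-98-5p, where mmu- stands for mouse and is left off below. They were taken by name from the table of counts, and all 9 were found among the 1809 miRNAs listed for all 4 libraries. The small RNA came from exosome preparations, vesicles precipitated from EDTA plasma. The donors were C57BL/6 mice that had received Lewis lung carcinoma (LLC) cells, a mouse lung tumour line, into a vein 21 days earlier, so every group carried the tumour cells and no tumour-free mice were compared. The mice lacked gp49B (gp49B-/-, here gp49B KO), an inhibitory receptor of myeloid cells, or were wild type (WT). Each genotype had 2 libraries, numbered pool 1 and pool 2, each made from pooled plasma of 4 samples in KO and 3 in WT, so the number of samples pooled went with genotype and mouse-to-mouse spread was not measured. In plasma, more vesicles of one source and more miRNA per vesicle cannot be told apart.

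Depth is counted in unique molecular identifiers (UMIs), tags put on single molecules before amplification. Totals over the 1809 miRNAs were 1709669 and 3630249 UMIs in KO pools 1 and 2, and 1577749 and 3170219 in WT pools 1 and 2. Reads per UMI were 5.70 and 2.11 in KO and 5.29 and 1.69 in WT, so depth per molecule followed pool number more than genotype. In the pool 1 libraries no count between 0 and 10 is listed. All 13 markers of 4 possible sources were above 0 in every library. Red blood cell markers summed to 7.94% and 17.8% of miRNA UMIs in KO and 10.6% and 18.4% in WT, platelet and myeloid markers to 5.08% and 1.27% in KO and 2.47% and 1.32% in WT, hepatocyte markers to 7.37% and 20.2% in KO and 11.2% and 27.2% in WT, and muscle markers to 3.68% and 0.686% in KO and 0.396% and 0.424% in WT. Their part in the let-7 values below was not tested.

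The mature sequences, from RefSeq on GRCm38.p6, are shown because the members differ by so few bases that the counts depend on telling them apart. Capitals mark the seed, bases 2 to 8 from the 5′ end, which all 9 share.
let-7a-5p: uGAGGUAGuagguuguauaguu
let-7b-5p: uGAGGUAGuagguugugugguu
let-7c-5p: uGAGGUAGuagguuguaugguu
let-7d-5p: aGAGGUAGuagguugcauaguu
let-7e-5p: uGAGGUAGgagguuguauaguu
let-7f-5p: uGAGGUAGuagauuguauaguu
let-7g-5p: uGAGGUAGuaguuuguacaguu
let-7i-5p: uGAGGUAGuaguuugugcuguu
miR-98-5p: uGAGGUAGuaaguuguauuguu

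Each member is 22 bases long. Of the 36 pairs of members, 4 differ at 1 base, and the median pair differs at 3. Counted from 1 at the 5′ end, let-7c differs from let-7a by A19G, let-7e by U9G and let-7f by G12A, and let-7c differs from let-7b by G17A. Members let-7d, let-7g, let-7i and miR-98 are at least 2 bases from every other member, and let-7d alone starts with another base (U1A against let-7a). The sources used here do not say how mismatches were treated when reads were assigned, so some counts of the 4 close pairs may belong to the partner.

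The members come from 12 deposited loci on GRCm38. Precursors of let-7a-1, let-7f-1 and let-7d lie together on chromosome 13 in exons of the long noncoding RNA 6720427I07Rik, with let-7d and let-7f starting 1811 bases apart and let-7f and let-7a 350 bases apart. On chromosome 15, let-7c-2 (chr15:85706616-85706637) and let-7b (chr15:85707325-85707346) start 709 bases apart, on the plus strand, in exons of the noncoding transcript Lncppara. Introns of the ubiquitin ligase gene Huwe1 on chromosome X hold let-7f-2 and miR-98, which start 876 bases apart. The remaining loci are let-7a-2 on chromosome 9 and let-7c-1 on chromosome 16 (chr16:77599672-77599693, plus strand), both in introns of noncoding host transcripts, let-7e in an intron of Spaca6 on chromosome 17, let-7g in an intron of Wdr82 on chromosome 9, and let-7i in an exon of D630033A02Rik on chromosome 10. The guide strands of let-7a, let-7c and let-7f are each the same from 2 loci, so their counts cannot be divided between those loci.

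Together the members took 179681 and 333193 UMIs in KO pools 1 and 2, and 134597 and 251382 in WT pools 1 and 2. As a share of miRNA UMIs this was 10.5% (exact 95% binomial interval 10.5 to 10.6%) and 9.18% (9.15 to 9.21%) in KO, against 8.53% (8.49 to 8.57%) and 7.93% (7.90 to 7.96%) in WT. Such intervals, here and below, cover counting error only. The groups did not overlap, and the mean was 9.84 ± 0.941% over the KO pools against 8.23 ± 0.425% over the WT pools (SD, n = 2 each). An exact permutation test of 2 against 2 libraries cannot go below p = 0.333, so this separation could not pass any threshold. The groups overlapped when the most abundant miRNA, miR-16-5p, was left out of the total, and with TMM-scaled library sizes. The difference of 1.61 percentage points fell to 0.948 if KO pool 1 was left out, and was 2.28 if KO pool 2 was. Within pools the KO over WT ratio of the shares was 1.23 in pool 1 (1.22 to 1.24) and 1.16 in pool 2 (1.15 to 1.16). TMM scaling sets the libraries level on the bulk of miRNAs rather than on the total. After it the ratios were 1.39 (1.38 to 1.40) and 0.971 (0.966 to 0.976), so the direction in pool 2 rested on the scaling. That bulk was mostly of low count, as 352 of the 1797 miRNAs tested averaged 100 UMIs or more. The smallest counts listed above 0 were 10 in both pool 1 libraries, 2 in KO pool 2 and 1 in WT pool 2. Whether this bears on the TMM factors was not tested.

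Levels of the single members spanned more than 2 orders of magnitude and fell into 3 tiers. The top tier was let-7b, let-7c, let-7i and let-7a, which ranked 4, 6, 7 and 13 among all miRNAs by mean share. Below it came let-7d, let-7f and let-7g at ranks 37, 38 and 41, and at the bottom let-7e and miR-98 at ranks 99 and 137. Neighbours in this order kept it in all 4 libraries for let-7b over let-7c (UMI ratio 1.43 to 2.05), let-7i over let-7a (1.52 to 1.90), let-7a over let-7d (2.88 to 4.03), let-7g over let-7e (5.92 to 11.5) and let-7e over miR-98 (1.65 to 2.49). It turned in 1 of the 4 libraries between let-7c and let-7i (0.607 to 1.37), between let-7d and let-7f (0.911 to 1.26) and between let-7f and let-7g (0.914 to 1.17). All 9 are near 1 length, so these levels need no correction for length, but ligation and amplification can favour one sequence over another.

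**Figure D1:**
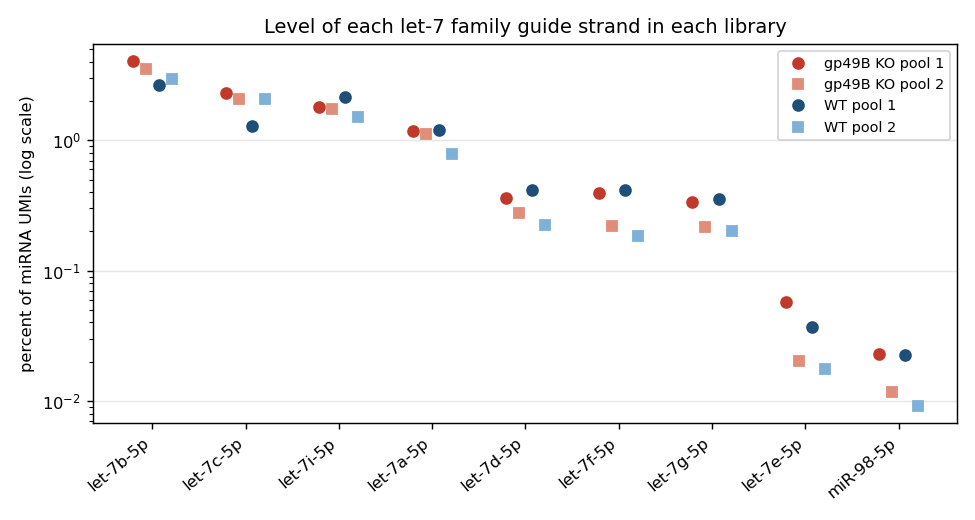
Share of miRNA UMIs (percent, log scale) of each member in the 2 gp49B KO and 2 WT libraries, 1 point per library, members ordered by mean share. For let-7b-5p and let-7c-5p WT pool 1 is the lowest point, and for the 5 members from let-7d-5p to miR-98-5p both pool 1 libraries lie above both pool 2 libraries.

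The genotype comparison asks whether loss of gp49B went with a change in these miRNAs in plasma vesicles of tumour-bearing mice. No member passed: with edgeR's quasi-likelihood test 0 of 9 were called at an adjusted p under 0.05, and 0% of all 1797 miRNAs tested were (32 of them had an unadjusted p under 0.05, none a member). Estimates were higher in KO for 7 members and lower for let-7g and let-7i, with log2 fold changes between -0.06 and 0.36 and a median of 0.06, beside a median of -0.03 over all miRNAs tested. The edgeR adjusted p was 0.99995 for every member. Standard errors were 0.51 to 1.03 on the log2 scale, on which a 2-fold difference is 1. DESeq2 also called 0, with 28 miRNAs at an unadjusted p under 0.05, and limma-voom called 0 with 27. The direction of the estimates hung on single libraries: 2 of 9 were above 0 with WT pool 1 or KO pool 2 left out, and 9 of 9 with WT pool 2 or KO pool 1 left out. Over all miRNAs, leaving out WT pool 2 gave 2 calls and leaving out KO pool 2 gave 3, none of them a member.

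The most abundant member was let-7b-5p, encoded on chromosome 15 and at 1 locus. Its counts were 69250 and 127122 UMIs in KO pools 1 and 2, against 41982 and 93175 in WT pools 1 and 2, or 4.05% and 3.50% of miRNA UMIs in KO against 2.66% and 2.94% in WT. The KO libraries were both the higher ones, and the 2 WT shares were closer to each other than the KO shares were. Its KO over WT ratio of shares was 1.52 in pool 1 (1.50 to 1.54) and 1.19 in pool 2 (1.18 to 1.20). With TMM it was 1.72 in pool 1 (1.70 to 1.74) and 1.00 in pool 2 (0.991 to 1.01). The fitted log2 fold change was 0.22 (SE 1.03).

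Its sequence neighbour let-7c-5p, 1 base apart and partly from the same host transcript, had 39256 and 74999 UMIs in KO against 20430 and 65301 in WT. These were 2.30% and 2.07% of miRNA UMIs in KO against 1.29% and 2.06% in WT. WT pool 1 stood alone below the other 3 libraries, and KO pool 2 and WT pool 2 were level. The ratio of shares was 1.77 in pool 1 (1.74 to 1.80) and 1.00 in pool 2 (0.992 to 1.01), and with TMM 2.0 (1.97 to 2.04) and 0.842 (0.833 to 0.851). Its log2 fold change was 0.06 (SE 1.02).

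These were the 2 members, of 9, whose shares were higher in both KO libraries than in either WT library, for let-7c by a margin within counting error. Over all miRNAs tested 3.28% were separated in that direction, and 10.2% of the 118 that averaged 500 UMIs or more (a limit set with the values known), against 2 of the 8 members in that class. No member had both KO shares below both WT shares, where 2.11% of all miRNAs tested did. With TMM-scaled CPM, UMI counts set against the scaled library size, 0 of 9 members were separated in either direction, where 9.52% of all miRNAs tested lay higher in KO and 11.6% lower.

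Among the other abundant members, let-7i-5p, the member of chromosome 10, had 30812 and 63719 UMIs in KO against 33656 and 47650 in WT. Its shares were 1.80% and 1.76% in KO, between the WT shares of 2.13% and 1.50%. The KO over WT ratio of shares was 0.845 in pool 1 (0.832 to 0.858) and 1.17 in pool 2 (1.15 to 1.18), so the pools went opposite ways, and with TMM both were close to 1, at 0.954 (0.939 to 0.969) and 0.980 (0.968 to 0.992). The founding sequence of the family, let-7a-5p, which is identical in worm and mouse, had 20254 and 40404 UMIs in KO against 18930 and 25039 in WT. This was 1.18% and 1.11% of miRNA UMIs in KO against 1.20% and 0.790% in WT, where WT pool 2 was the low library. Ratios were 0.987 (0.968 to 1.01) and 1.41 (1.39 to 1.43), and with TMM 1.11 (1.09 to 1.14) and 1.18 (1.16 to 1.20).

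In the middle tier the groups overlapped for every member. For let-7d-5p the shares were 0.361% and 0.276% in KO against 0.417% and 0.223% in WT. For let-7f-5p they were 0.397% and 0.220% in KO against 0.413% and 0.185% in WT. For let-7g-5p they were 0.338% and 0.215% in KO against 0.353% and 0.203% in WT. In each of the 3 the KO library was below the WT library in pool 1 and above it in pool 2. Their ratios of shares ran from 0.867 to 0.960 in pool 1 and from 1.06 to 1.24 in pool 2, and with TMM from 0.979 to 1.08 and from 0.889 to 1.04.

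At the bottom of the order, both members had higher shares in pool 1 than in pool 2 in either genotype. Counts of let-7e-5p were 977 and 736 UMIs in KO against 585 and 561 in WT, or 0.0571% and 0.0203% in KO against 0.0371% and 0.0177% in WT. Its ratio of shares was 1.54 in pool 1 (1.39 to 1.71) and 1.15 in pool 2 (1.03 to 1.28). With TMM the ratio was 1.74 in pool 1 (1.57 to 1.93) and 0.961 in pool 2 (0.860 to 1.07). The log2 fold change of let-7e-5p, 0.36 (SE 0.56), was the highest of the 9. For miR-98-5p the counts were 393 and 424 UMIs in KO against 355 and 292 in WT. Its pool 1 ratio was 1.02 (0.883 to 1.18), within counting error of 1, and its pool 2 ratio 1.27 (1.09 to 1.48).

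Counted over the family, 4 of 9 members had KO over WT ratios of shares above 1 in both pools, where 24.2% of all miRNAs tested did. They were let-7b, let-7c, let-7e and miR-98, and for let-7c in pool 2 and miR-98 in pool 1 the interval included 1. The other 5 were above 1 in pool 2 only, and none was below 1 in both, where 20.8% of all miRNAs tested were. With TMM 2 of 9 were above 1 in both pools, let-7a and miR-98, where 24.3% of all miRNAs tested were, 5 were above 1 in pool 1 only and 1 in pool 2 only. One member, let-7i, was below 1 in both pools with TMM, where 27.2% of all were. Median member ratios of shares were 0.987 in pool 1 and 1.18 in pool 2, against 0.880 and 1.18 over all miRNAs with a ratio (1780 in pool 1 and 1797 in pool 2). With TMM they were 1.11 and 0.994, against 0.994 and 0.989 over all. The 118 abundant miRNAs had medians of 1.19 and 1.14 on shares, and 1.34 and 0.960 with TMM. Beside these, the member median was lower in pool 1 and higher in pool 2.

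**Figure D2:**
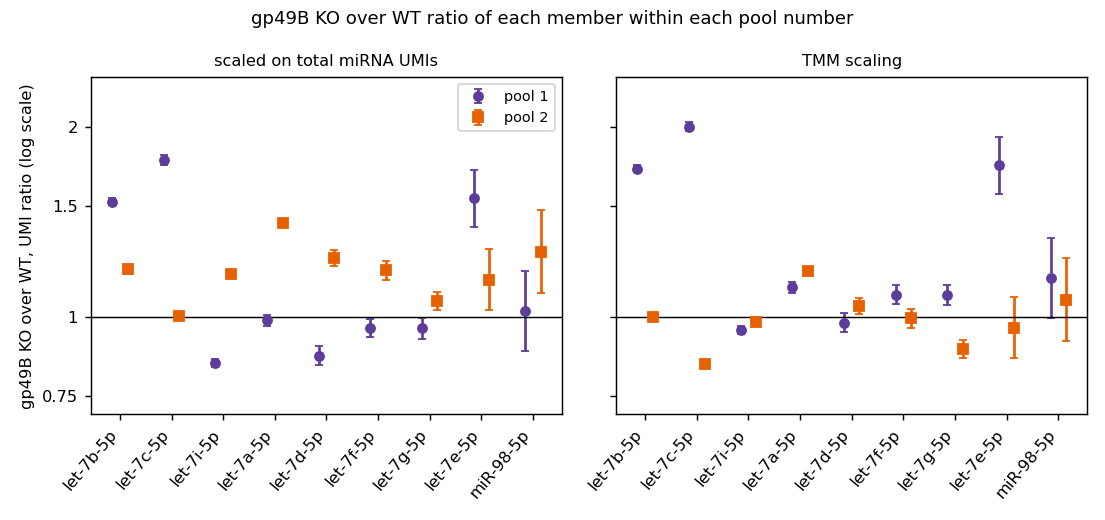
Ratio of gp49B KO over WT UMIs for each member (log scale) within pool 1 (circles) and pool 2 (squares), scaled on total miRNA UMIs (left) and by TMM (right), with exact 95% intervals for counting error. In pool 1 let-7b-5p, let-7c-5p and let-7e-5p stand at 1.52 to 1.77 on the left, apart from the other members, and in pool 2 none of these 3 is the highest.

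The make-up of the family differed between libraries. Its largest part, let-7b, held 38.5% and 38.2% of family UMIs in KO pools 1 and 2, against 31.2% and 37.1% in WT. The part of let-7c was 21.8% and 22.5% in KO against 15.2% and 26.0% in WT, that of let-7i 17.1% and 19.1% in KO against 25.0% and 19.0% in WT, and that of let-7a 11.3% and 12.1% in KO against 14.1% and 9.96% in WT. WT pool 1 was the library apart, low in let-7b and let-7c and high in let-7i, let-7a, let-7d, let-7f and let-7g. Summed after their values were seen, let-7b and let-7c made up 60.4% and 60.7% of the family in KO, against 46.4% and 63.0% in WT. Their mean part was 60.5 ± 0.194% over the KO pools against 54.7 ± 11.8% over the WT pools (SD, n = 2 each), and the KO values lay between the WT values.

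As shares of all miRNA UMIs, these 2 held 1.48 of the 1.61 percentage points by which the family was higher in KO on average, but not the larger part in pool 2. They took 6.35% and 5.57% of miRNA UMIs in KO against 3.96% and 5.00% in WT, while the other 7 members took 4.16% and 3.61% in KO against 4.58% and 2.93% in WT. The KO over WT ratio of the pair was 1.60 in pool 1 (1.59 to 1.62) and 1.11 in pool 2 (1.11 to 1.12). That of the other 7 was 0.910 (0.901 to 0.919) and 1.23 (1.22 to 1.24). On shares the pair and the rest thus lay on opposite sides of 1 in pool 1 and on the same side in pool 2. With TMM this turned round: in pool 1 the pair was at 1.81 (1.79 to 1.83) and the other 7 at 1.03 (1.02 to 1.04), and in pool 2 the pair was at 0.935 (0.929 to 0.941) and the other 7 at 1.03 (1.03 to 1.04). The pair stood above the other 7 in pool 1 and below them in pool 2. Scaling acts alike on all miRNAs of a library, so this order must be the same under both scalings. UMIs of let-7c per UMI of let-7a, which differ by the single change A19G, numbered 1.94 and 1.86 in KO against 1.08 and 2.61 in WT. The 2 KO libraries were alike in this and the WT libraries lay on either side of them.

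**Figure D3:**
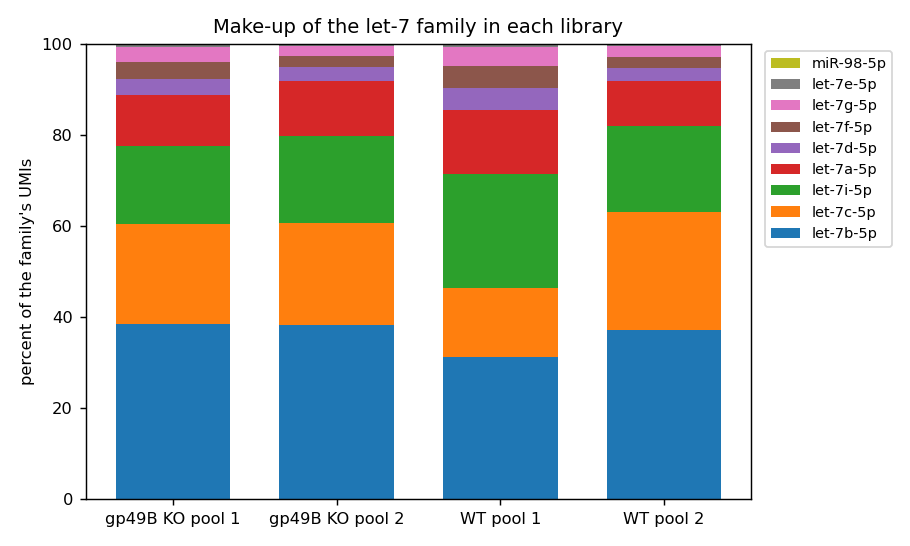
Percent of the family's UMIs held by each member in the 2 gp49B KO libraries and the 2 WT libraries (stacked bars, each summing to 100). The 2 lowest blocks, let-7b-5p and let-7c-5p, reach 60.4%, 60.7%, 46.4% and 63.0% from left to right, so WT pool 1 differs from the other 3.

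Between pool numbers the members changed unevenly. On the log2 scale of shares, pool 2 minus pool 1 (mean over genotypes) was -1.28 for let-7e, -1.13 for miR-98 and -1.0 for let-7f, -0.73 for let-7g and -0.65 for let-7d, but -0.03 for let-7b and 0.26 for let-7c. For the abundant let-7a and let-7i it was -0.35 and -0.27. All members except let-7b and let-7c had lower shares in pool 2 in both genotypes, and the summed family differed by -0.15. With TMM the same difference was positive for all 9 members, from 0.07 for let-7e and 0.22 for miR-98 to 1.32 for let-7b and 1.61 for let-7c, and 1.20 for the family. The direction between pool numbers thus rested on the scaling. The order of the members, from let-7e as the lowest to let-7c as the highest, cannot change with it. Scaling shifts the values of all members by the same amount. Red blood cell and hepatocyte marker sums, given above, were higher in pool 2 in both genotypes. So were miR-486a-5p, miR-486b-5p, miR-451a and miR-122-5p singly, but the lists did not move as 1. The red cell marker miR-144-3p was lower in pool 2, at 0.0125% and 0.00986% in KO and 0.0321% and 0.00757% in WT. Markers miR-144-5p and miR-192-5p were higher in pool 2 in KO and lower in WT. Whether these sources bear on the let-7 shares was not tested.

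Each let-7 hairpin also yields an arm from its other side, the passenger strand, which is usually degraded. The table lists 11 such arms, all tested, and none was called (0 of 11, against 0% of all miRNAs). Estimates were higher in KO for 4 and lower for 7, with a median log2 fold change of -0.06. Together they took 0.199% and 0.0857% of miRNA UMIs in KO against 0.194% and 0.0787% in WT, and the groups overlapped. As a part of both arms this was 1.86% and 0.925% in KO against 2.22% and 0.982% in WT. This summed passenger part was lower in pool 2 than in pool 1 in both genotypes, though not for every hairpin. TMM factors, which follow the bulk of miRNAs, were also lower in pool 2, at 0.684 in KO and 0.574 in WT against 1.50 and 1.70 in pool 1. The fall is thus not shown to be particular to these arms.

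Hairpins differed widely in how much of the other arm was present. Of UMIs from the let-7d hairpin, let-7d-3p made up 20.2% and 15.5% in KO against 17.3% and 18.6% in WT. For miR-98 the 3p part was 20.8% and 17.5% in KO against 19.1% and 12.3% in WT. By contrast let-7i-3p was 0.0616% and 0.0282% of its hairpin in KO against 0.0683% and 0.0399% in WT, at 23 UMIs or fewer. The 3p part of let-7g was higher in pool 2, with 0.396% and 0.548% in KO against 0.179% and 0.726% in WT, at 47 UMIs or fewer. For let-7e it was 3.17% and 5.52% in KO against 5.80% and 5.08% in WT. Between pools, the parts of let-7d and let-7e thus went opposite ways in KO and WT. The passenger arm let-7b-3p had 941 and 702 UMIs in KO against 747 and 415 in WT, and its ratio of shares was 1.16 in pool 1 (1.05 to 1.28), below the 1.52 of let-7b-5p, and 1.48 in pool 2 (1.31 to 1.67), above the 1.19 of let-7b-5p. On reads its pool 2 ratio was 1.21, close to the 1.19 of let-7b-5p on reads, and its pool 1 ratio was 1.11, against 1.51 for let-7b-5p. The arm of let-7c-1, let-7c-1-3p, had a pool 1 ratio of 1.00 (0.831 to 1.21), against 1.77 for let-7c-5p.

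Neighbours encoded beside let-7 hairpins gave another view of the loci. On chromosome 16 miR-99a and miR-125b-2 share the host gene Mir99ahg with let-7c-1, on chromosome 9 miR-100 and miR-125b-1 lie beside let-7a-2, and on chromosome 17 miR-99b and miR-125a flank let-7e. The miR-99 and miR-100 family is known to repress mTOR, and miR-125 acts in blood cell formation. None of the 5 guide strands was called (edgeR, adjusted p of 0.99995), and estimates were higher in KO for 4 and lower for miR-99b-5p. The shares of 2 of the 5, miR-99a-5p and miR-100-5p, were higher in both KO libraries than in either WT library (3.28% of all miRNAs tested).

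Counts of miR-99a-5p were 1276 and 2380 UMIs in KO against 476 and 1911 in WT, or 0.0746% and 0.0656% in KO against 0.0302% and 0.0603% in WT. As with let-7c-5p, WT pool 1 was the library apart. The ratio of shares was 2.47 in pool 1 (2.22 to 2.75) and 1.09 in pool 2 (1.02 to 1.16). For miR-125b-5p, counted from both loci, the ratios were 2.02 (1.96 to 2.08) and 1.02 (0.995 to 1.04), and for miR-100-5p 1.91 (1.56 to 2.36) and 1.06 (0.922 to 1.22). For miR-125b-5p KO pool 1, not WT pool 1, was the library apart. Its shares were 0.864% and 0.426% in KO against 0.428% and 0.418% in WT. KO pool 1 was the highest for miR-125a-5p too, with 1.57% and 0.487% in KO against 0.788% and 0.450% in WT. On chromosome 17 miR-125a-5p had 2.0 (1.95 to 2.04) and 1.08 (1.06 to 1.11), while miR-99b-5p had 1.01 (0.907 to 1.12) and 0.856 (0.794 to 0.924). The miRNAs beside let-7e thus differed from each other in pool 1, with let-7e-5p in between at 1.54. With TMM, pool 2 ratios of all 5 were below 1 (0.718 to 0.913). The direction in pool 2 thus turned with the scaling for 4 of the 5, and miR-99b-5p was below 1 under both scalings.

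**Figure D4:**
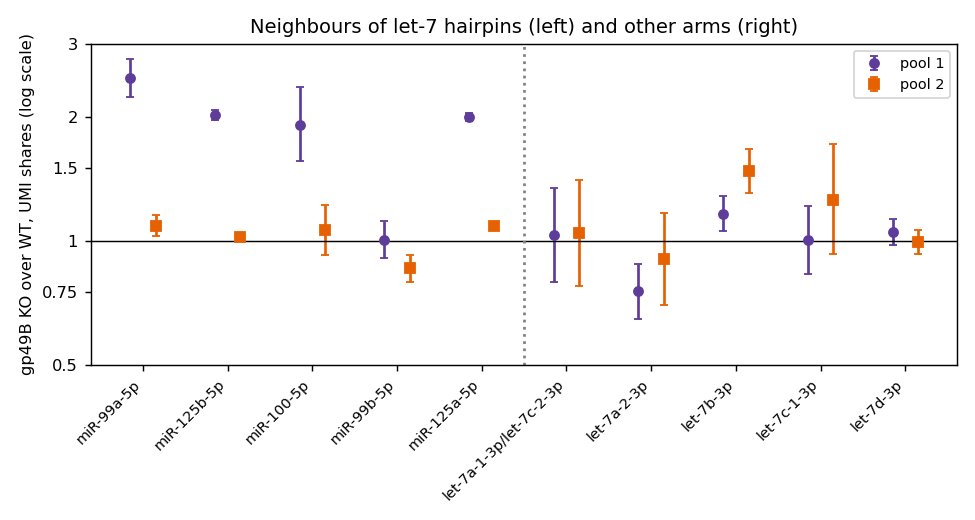
Ratio of gp49B KO over WT shares of miRNA UMIs (log scale) in pool 1 (circles) and pool 2 (squares), with exact 95% intervals for counting error, for the 5 neighbours and the 5 other arms with 50 or more UMIs in every library. In pool 1, 4 neighbours stand between 1.91 and 2.47, and in pool 2 all 5 stand between 0.856 and 1.09.

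Besides the members, 2 miRNAs carry the same seed among the 1560 of 1809 listed names that matched a RefSeq mature sequence. They are shown to set their length and letters beside those of the members. let-7j, whose seed differs at its last base and equals that of miR-202-3p, is shown for its name.
let-7k: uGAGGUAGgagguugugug
miR-1961: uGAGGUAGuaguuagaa
let-7j: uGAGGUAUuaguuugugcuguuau

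Over its 19 bases let-7k differs from let-7b-5p by U9G alone, and miR-1961 has 17 bases, of which 3 differ from let-7a-5p. Counts of let-7k were 257 and 220 UMIs in KO against 166 and 133 in WT, and both pool ratios of shares were above 1, at 1.43 (1.17 to 1.75) and 1.44 (1.16 to 1.81). Counts of let-7j were 243 and 184 in KO against 198 and 90 in WT, with ratios of 1.13 (0.935 to 1.37) and 1.79 (1.38 to 2.32). miR-1961 had 64 and 46 in KO against 72 and 20 in WT, and miR-202-3p 44 and 64 against 49 and 48. None of these 4 was called, and their KO and WT shares overlapped.

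Reads per UMI, which say how often a tagged molecule was seen again, set several of these apart. The median over miRNAs with 100 or more UMIs was 6.15 and 2.18 in KO pools 1 and 2 and 5.84 and 1.71 in WT pools 1 and 2. Of the members, let-7d-5p was close to this in every library, with 6.00 and 2.16 in KO and 5.82 and 1.71 in WT. The other members were below it in every library. For let-7b-5p the values were 5.25 and 2.04 in KO and 4.92 and 1.63 in WT, and 11.2% to 15.3% of miRNAs were lower, over the 4 libraries. The rare members were lower still: let-7e-5p had 4.17 and 1.68 in KO and 3.32 and 1.52 in WT, and miR-98-5p 3.39 and 1.83 in KO and 3.43 and 1.48 in WT. On reads in place of UMIs, the pool 1 ratio of let-7e was 1.80 rather than 1.54, and that of miR-98 was 0.939 rather than 1.02. In pool 2 the ratio on reads was 1.01 rather than 1.15 for let-7e, and 1.25 rather than 1.27 for miR-98.

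Lowest of the hairpins' products was let-7b-3p, with 1.35 and 1.18 reads per UMI in KO and 1.31 and 1.15 in WT. At most 1.76% of miRNAs with 100 or more UMIs were lower in any library. let-7k had 1.98 and 1.18 in KO and 1.96 and 1.19 in WT, and let-7j 2.77 and 1.47 in KO and 2.50 and 1.29 in WT. The arms let-7a-2-3p (6.61 and 2.31 in KO, 6.52 and 1.86 in WT) and let-7d-3p (6.63 and 2.16 in KO, 6.24 and 1.73 in WT) were near the median or above it.

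**Figure D5:**
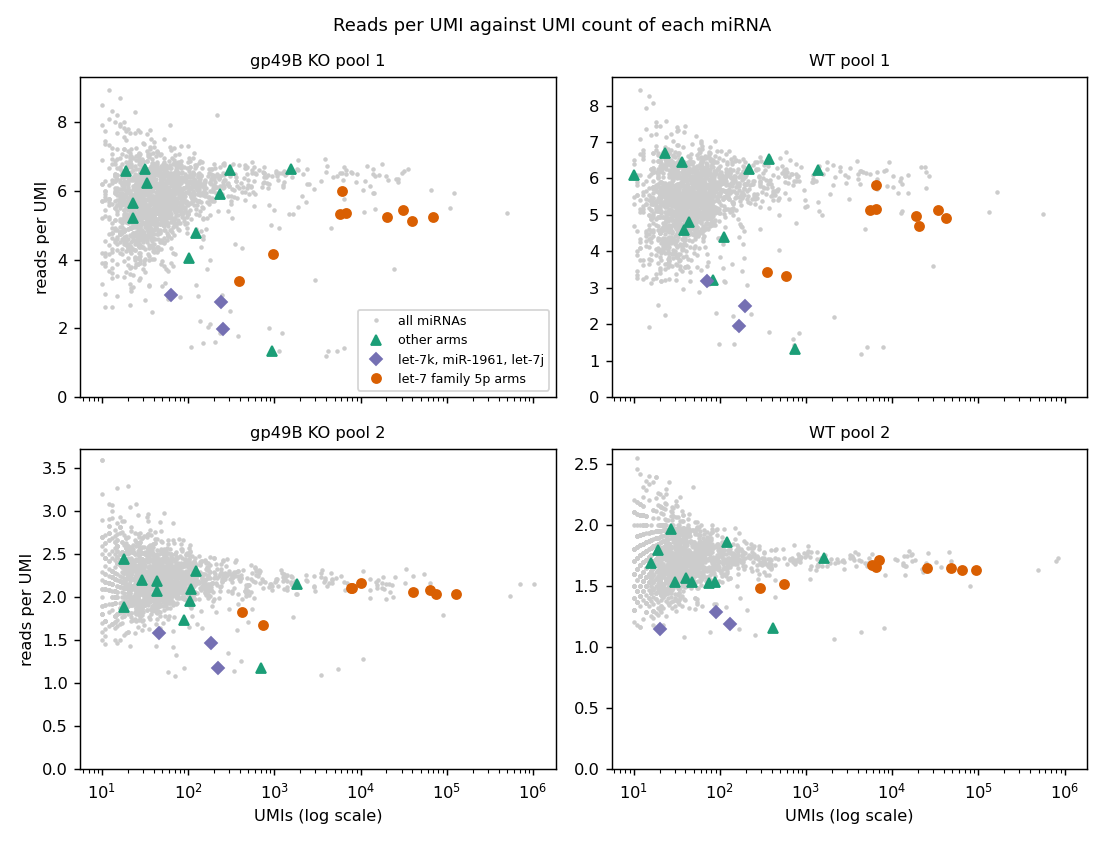
Reads per UMI against UMI count (log scale) for every miRNA with 10 or more UMIs (grey), the 9 members (circles), the 11 other arms (triangles) and let-7k, miR-1961 and let-7j (diamonds), 1 panel per library, KO on the left. let-7b-3p is the lowest triangle and let-7d-5p the highest circle in each panel.

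By profile over the 4 libraries, the miRNA most like the summed family was miR-30a-5p, among the 82 other miRNAs that averaged at least 1000 UMIs. The measure was the root mean square difference of log2 CPM after TMM, centred per miRNA, which was 0.11 for miR-30a-5p against a median of 0.43 over the 82. Next came miR-425-5p (0.13), miR-342-3p (0.13), miR-30e-5p (0.14) and miR-1198-5p (0.14). Shares of miR-30a-5p were 0.661% and 0.539% in KO against 0.552% and 0.573% in WT, so its groups overlapped. With 4 libraries that share their pool numbers and scaling, this is a description and carries no p.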

How the data were processed

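Plasma exosomes were precipitated with ExoQuick and small RNA libraries prepared with a QIAseq miRNA kit, per the labels' protocols, and read on an Illumina NextSeq-500, per the series' design text. The authors deposited counts of UMIs and of reads per miRNA, whole numbers with no normalization, and per library a log2 value, found here to be the log2 UMI count shifted by a constant of that library. The submitters' processing notes name FastQC 0.11.9 and the builds GRCm38 and mm10. The sources used here give no aligner or counter. The file columns of WT pool 2 and KO pool 2 departed from their labels, so each file was assigned by its label and its UMI counts were checked to be identical to those of that library in the table of all libraries. miRNAs listed for both pool numbers were used (1809), and piRNAs were left out.

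The KO and WT libraries were compared on UMI counts in edgeR 4.0.16 under R 4.3.3: default filtering by expression (1797 tested), TMM scaling, two-sided quasi-likelihood F-test without a block, Benjamini-Hochberg adjusted p under 0.05 over all miRNAs tested, and SE taken as the log2 fold change over the root of F. The test was tested on simulated data with changes larger than any member's estimate and no difference between pool numbers. That simulation does not show whether changes as small as those of the members would be found. Libraries of 1 genotype are separate pools, per the labels, and whether they came from separate cohorts is not stated. Ratios within a pool number have exact 95% intervals. TMM factors were 1.50 and 0.684 in KO pools 1 and 2 and 1.70 and 0.574 in WT pools 1 and 2. Alternatives used DESeq2 1.42.0 and limma 3.58.1, other scalings, filters and denominators, read counts, the authors' deposited log2 values, pool number as a block, and each library left out. Loci are the deposited ones, annotated with GENCODE M21, and sequences are from RefSeq tables (9 of 9 members matched by name).

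The members, lists and settings were chosen with earlier results of these data known. Named were the 9 members, the other arms, 5 neighbours, miRNAs of the same seed with let-7j and miR-202-3p, and the 5 nearest profiles. Python 3.11.15 with SciPy 1.17.1 and pandas 2.3.3 handled the tables.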

Additional observations from a re-analysis of the deposited data

How the results depend on the processing

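No member was called under any of the 16 alternative settings of the fit (lowest adjusted p of a member 0.899, with pool number as a block). Over all miRNAs, 10 were called with the block among those averaging at least 100 UMIs (8 higher, 2 lower in KO), and 0 to 3 with a library left out, where a lone library is assumed to vary like the others. The pool number as a replicate block gave 0 calls over all miRNAs and 78 at an unadjusted p under 0.05, against 32 without it. Deviations of KO pool 1 and WT pool 1 correlated at 0.527 across miRNAs, and at 0.686 across those averaging at least 100 UMIs. The labels do not pair the libraries, and the main fit has no block. It thus counts differences between pool numbers as spread within a genotype.

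Keeping all libraries, 6 of 108 member log2 fold changes turned in sign: let-7d to -0.0046 on total UMIs, -0.0027 with limma-voom, -0.063 on miRNAs averaging at least 100 UMIs and -0.074 on these with the block, and let-7f to -0.035 and -0.033 under the last pair. With a library left out 14 of 36 turned. Ranges were -0.40 to 0.77 for let-7a, -0.37 to 1.32 for let-7b, -0.63 to 1.58 for let-7c, -0.40 to 0.39 for let-7d, -0.12 to 0.27 for let-7f, -0.37 to 0.38 for let-7g and -0.69 to 0.58 for let-7i. The cause was not tested.

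The KO minus WT difference in family share stayed above 0 under all alternatives, from 0.784 (TMM-scaled size) to 2.28 percentage points (without KO pool 2), but the groups overlapped with the TMM-scaled size and without the most abundant miRNA. Its pool 1 ratio was 1.21 on reads, 1.13 without the most abundant miRNA, 1.20 without red blood cell markers, 1.19 without miR-122-5p, 1.24 over every row and 1.39 with TMM. In pool 2 it was 1.22 without the most abundant miRNA, 1.15 without red blood cell markers, 1.06 without miR-122-5p and 0.971 with TMM, the one value below 1. Precision was limited by 2 libraries per genotype, not by counting: the family had 134597 UMIs or more in each.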

Other observations

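Over the chromosome 13 cluster, let-7a-5p UMIs per let-7d-5p UMI numbered 3.28 and 4.03 in KO pools 1 and 2, against 2.88 and 3.55 in WT pools 1 and 2. The KO over WT ratio of this quotient was 1.14 in both pools, and the groups overlapped. The same quotient of let-7c-5p over let-7a-5p went opposite ways, at 1.80 in pool 1 and 0.712 in pool 2. These pairs were chosen after their values were seen, and let-7a-5p and let-7c-5p are each counted from 2 loci.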
